A study of Mus musculus with 28 samples.

Results

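The genes described here are 9 that mark neutrophils or belong to the chemokine axis that draws them into tissue: S100a8, S100a9, Cxcl1, Cxcl2, Cxcl3, Cxcl5, Cxcr2, Ly6g and Retnlg, out of 55341 gene names measured. They were chosen as a set and selected on their levels across the 6 treatment groups in these same tumors, so their own values are given as a description. Calls from the fit of all genes are listed for them beside the share of all genes called, with no p-values, and nothing is read from those calls. RNA was sequenced from 28 whole AB1-HA tumors, each from a different mouse. AB1-HA is a mouse mesothelioma cell line that carries an influenza haemagglutinin gene, and it was grown under the skin of the flank in female BALB/c.AusBP mice aged 8 to 10 weeks. Every tumor, controls included, came from this line and strain and was collected 7 days after treatment began.

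Control mice received PBS (4 tumors). ICB mice received anti-CTLA-4 once and anti-PD-L1 3 times, each at 100 μg (5 tumors). The chemotherapy groups received 5-FU at 75 mg/kg (5 tumors) or cisplatin at 6 mg/kg (4 tumors), and the combinations received the same chemotherapy together with ICB (5-FU+ICB, 5 tumors, and cisplatin+ICB, 5 tumors). The total per tumor ranged from 23541485 to 33950555 estimated counts, so that 3 counts, used as the floor, corresponded to 0.0821 to 0.159 CPM (counts scaled to a common library size). Levels are given as CPM or log2 CPM after TMM scaling of all 28 tumors, and intervals between tumors are SDs. These were bulk samples of whole tumors, in which fewer cells of a type and less RNA per cell cannot be told apart. Sums of the marker lists for other cell types varied widely between tumors. The 4 skeletal muscle markers summed to between 1.52 and 3966 CPM. The 5 keratinocyte markers had median sums of 1.26 to 8.83 CPM in the 6 groups and reached 458 CPM in ICB replicate 2. Mesothelin (Msln) had group medians of 53.3 to 308 CPM, whereas the mesothelial gene Upk3b was at most 0.0670 CPM in any tumor.

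Neutrophils are short-lived granulocytes that leave the blood along gradients of ELR+ CXC chemokines. Mouse CXCL1, CXCL2, CXCL3 and CXCL5 are such ligands and bind the receptor CXCR2, which is displayed mainly by neutrophils. The ligands are produced by macrophages, fibroblasts, endothelium and tumor cells after IL-1, TNF or IL-17 signaling, largely through NF-κB. S100A8 and S100A9 pair to form calprotectin, an abundant cytosolic protein of neutrophils and of inflammatory monocytes. Ly6G is the antigen by which mouse neutrophils are commonly gated, and Retnlg encodes a resistin-like protein of mature neutrophils.

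The 4 chemokine genes lie in 1 cluster on the forward strand of chromosome 5 in GRCm38 (chr5:90759360-90905938, from the start of Cxcl5 to the end of Cxcl2). S100a8 (chr3:90668978-90670035) and S100a9 (chr3:90692632-90695721) are neighbors on chromosome 3. Cxcr2 (chr1:74153989-74161246), Ly6g (chr15:75155240-75159126) and Retnlg (chr16:48872621-48874496) lie elsewhere, and all 9 are annotated as protein-coding. Of the 9 genes, 8 were found in the RefSeq promoter table (GRCm38.p6), which did not list Cxcl5. The 250 bases upstream of the start sites of Cxcl1, Cxcl2 and Cxcl3 were compared, and the longest word common to all 3 was GGGAATTTCCC, which has the form of an NF-κB site. It stood at positions -71 to -61, -97 to -87 and -73 to -63 from the RefSeq start site. The only other common word of 8 letters or more was ATAAAAGG, which has the form of a TATA box. It stood at -34 to -27, -57 to -50 and -29 to -22, and does not overlap the first. Searched on both strands of the same window in all 27025 genes of the table, GGGAATTTCCC was held by 14 genes (0.0518%) and ATAAAAGG by 494 (1.83%). The other 5 members in the table held neither. Since the words were read from these 3 genes, their presence there is no finding, and a match describes the sequence and is not evidence of binding. Each stretch below ends before the first base of the gene in GENCODE, which for Cxcl1 and Cxcl2 lies upstream of the RefSeq start site. The positions above therefore do not count from the end of those stretches. The upstream stretches are shown because the 3 ligands share both words, which are written in capitals, 5′ to 3′ on the forward strand.
Cxcl1 (chr5:90891115-90891240): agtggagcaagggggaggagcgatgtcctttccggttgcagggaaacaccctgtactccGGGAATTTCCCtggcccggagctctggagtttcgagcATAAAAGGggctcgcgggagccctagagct
Cxcl2 (chr5:90903769-90903870): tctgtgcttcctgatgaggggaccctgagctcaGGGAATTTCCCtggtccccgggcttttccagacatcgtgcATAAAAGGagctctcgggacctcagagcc
Cxcl3 (chr5:90785971-90786100): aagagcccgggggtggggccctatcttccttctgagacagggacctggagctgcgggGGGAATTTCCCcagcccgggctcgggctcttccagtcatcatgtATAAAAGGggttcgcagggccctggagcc

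The set was first checked against genes that define neutrophils. Ly6g was at 0 counts in all 4 PBS tumors and at no more than 6 counts in any tumor. Cxcr1, a second receptor for these ligands, reached at most 0.0999 CPM. The granule genes Mpo, Elane and Ngp, which are transcribed in marrow precursors, reached at most 0.253, 0.0618 and 0.114 CPM. Other genes used by neutrophils were plentiful but are shared with macrophages and monocytes. The G-CSF receptor Csf3r had group medians of 7.41 to 107 CPM and the gelatinase Mmp9 of 146 to 941 CPM. The 9 genes are therefore treated as a list of genes and not as a count of neutrophils. Ly6g was too low to be tested, and the other 8 passed the expression filter in both matrices.

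**Figure D1:**
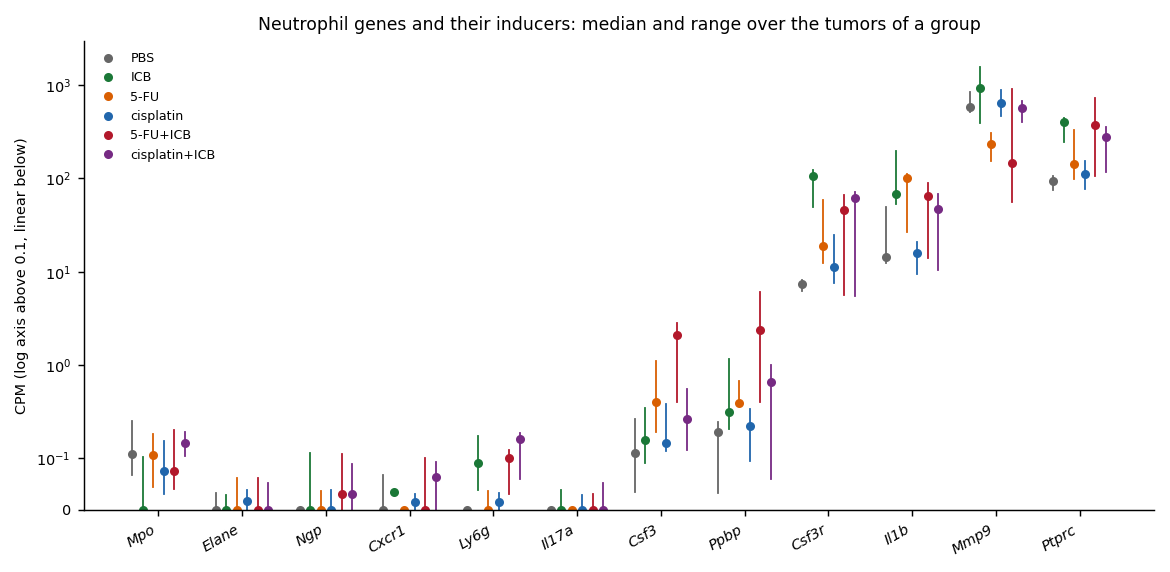
Level of neutrophil genes, their inducers and Ptprc in the 6 groups, in CPM on an axis that is logarithmic above 0.1 and linear below. Points are group medians and lines run from the lowest to the highest tumor. Mpo, Elane, Ngp, Cxcr1, Ly6g and Il17a stay at or near 0 in every group, whereas the Csf3r median is 7.41 CPM in PBS and 107 CPM in ICB tumors.

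By mean log2 CPM S100a9 was highest in cisplatin+ICB tumors and lowest in both 5-FU groups. In PBS tumors it was 0.689, 4.61, 0.614 and 0.697 CPM, and in ICB tumors 4.09, 14.4, 2.68, 3.10 and 4.15 CPM. The cisplatin tumors had 2.90, 4.15, 1.71 and 6.57 CPM, and the cisplatin+ICB tumors 38.9, 15.3, 5.12, 8.90 and 14.7 CPM. All 5 cisplatin+ICB tumors lay above every PBS tumor, although the lowest was only just above PBS replicate 2. In 5-FU tumors S100a9 was 0.219, 0.754, 1.65, 0.183 and 1.65 CPM, and in 5-FU+ICB tumors 1.08, 0.713, 0.446, 0.804 and 1.30 CPM. These 10 tumors all lay below every ICB, cisplatin and cisplatin+ICB tumor. In the order of mean log2 CPM, the steps from cisplatin+ICB to ICB (1.51) and from cisplatin to PBS (1.58) exceeded the larger SD of the neighbors, and the other 3 steps did not. PBS replicate 2 at 4.61 CPM was far from the other PBS tumors, and the place of PBS above both 5-FU groups rested on it. The PBS median was 0.693 CPM, below those of 5-FU (0.754 CPM) and 5-FU+ICB tumors (0.804 CPM).

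S100a8 was also highest in cisplatin+ICB and next in ICB tumors by mean log2 CPM, and was lowest in PBS tumors. The PBS mean of S100a9 lay above both 5-FU groups, but its PBS median (0.693 CPM) lay below theirs (0.754 and 0.804 CPM). None of the 5 steps of S100a8 exceeded the larger SD. It ranged from 0.446 to 2.95 CPM in PBS, from 2.80 to 12.3 CPM in ICB and from 4.18 to 22.0 CPM in cisplatin+ICB tumors. In the 5-FU groups it ranged from 0.934 to 2.18 CPM without ICB and from 0.589 to 3.52 CPM with it. S100a9 minus S100a8 was 0.51 ± 0.23 on the log2 scale in cisplatin+ICB (n = 5) and 0.23 ± 0.44 in PBS (n = 4). It was 0.14 ± 0.30 in cisplatin (n = 4) and -0.27 ± 0.64 in ICB tumors (n = 5). In 5-FU and 5-FU+ICB tumors it was -1.11 ± 1.07 and -1.26 ± 1.25 (n = 5 each), and the 5-FU+ICB tumors ran from -2.80 to 0.25.

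The receptor gene Cxcr2 had its group means in the same order as S100a9, and 1 of its 5 steps (ICB to cisplatin) exceeded the larger SD. In PBS tumors it was 1.42, 2.61, 1.70 and 1.33 CPM, and in cisplatin+ICB tumors 2.54, 10.6, 3.33, 10.0 and 7.99 CPM. In ICB tumors it was 4.60, 13.4, 2.21, 4.02 and 3.81 CPM. In 5-FU+ICB tumors 4 of the 5 values were low (0.521, 1.08, 0.770 and 1.42 CPM), and replicate 5 stood alone at 7.05 CPM. The 5-FU tumors (0.672 to 1.61 CPM) and the cisplatin tumors (1.90 to 2.90 CPM) did not overlap each other. Retnlg had group means of 0.623 to 1.81 CPM, and no step in its order exceeded the larger SD. Ly6g had 1 to 6 counts in each of the 15 tumors that received ICB, and 0 or 1 count in each of the 13 that did not. Of the 15, 9 were at or under the floor of 3 counts. Ly6g also shares words of 31 bases with Ly6c1 and Ly6c2, both called higher in all 3 groups given ICB, and their part in its counts was not tested.

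The means of log2 CPM of Cxcl1 were highest in the groups that received 5-FU. The step from 5-FU to the next group, cisplatin+ICB, was 1.05 and did not exceed the larger SD of 1.88. ICB and cisplatin+ICB tumors overlapped both 5-FU groups. The PBS tumors had 1.66, 3.69, 1.41 and 1.63 CPM, and the ICB tumors 5.86, 13.0, 3.04, 5.94 and 5.02 CPM. In 5-FU tumors Cxcl1 was 2.08, 48.6, 14.7, 8.15 and 46.9 CPM, and in 5-FU+ICB tumors 54.7, 11.7, 6.00, 19.8 and 8.55 CPM. The spread within both 5-FU groups was wide, and 5-FU replicate 1 was within the PBS range. Cisplatin tumors (1.72 to 4.68 CPM) overlapped PBS tumors, and cisplatin+ICB tumors (2.71 to 10.5 CPM) overlapped ICB tumors.

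Cxcl5 was highest in 5-FU+ICB tumors. They had 48.2, 61.8, 39.2, 69.5 and 19.9 CPM, against 8.71, 16.6, 17.3, 9.68 and 23.5 CPM in 5-FU tumors. The PBS tumors had 2.35, 8.33, 2.67 and 1.93 CPM. ICB tumors ranged from 6.00 to 43.4 CPM, cisplatin tumors from 5.40 to 9.17 CPM and cisplatin+ICB tumors from 8.07 to 26.0 CPM. The step from 5-FU+ICB to the next group was 1.43 on the log2 scale and exceeded the larger SD of 0.71, as did the step from cisplatin down to PBS (1.25 against 0.93).

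Cxcl2 and Cxcl3 were ordered differently, mainly in the 5-FU group. Cxcl2 had a median of 0.244 CPM in PBS, 2.13 CPM in ICB, 1.78 CPM in 5-FU, 0.750 CPM in 5-FU+ICB and 2.97 CPM in cisplatin+ICB tumors, and 1 PBS tumor was at or under the floor. Cxcl3 had medians of 0.747, 7.59, 1.15, 7.33 and 8.32 CPM in the same groups. Cxcl3 minus Cxcl2 was -0.30 ± 1.10 on the log2 scale in 5-FU tumors and between 1.60 ± 0.50 and 2.33 ± 0.45 in the other 5 groups. Of the 2121 words of 31 bases in the Cxcl2 transcripts, 161 also occur in Cxcl3, so the assignment of reads between these 2 genes is less certain than for S100a8, S100a9 and Cxcl1, which share none. Cxcr2 shares 368 of 3039 such words with other genes (Dnajb14 the most, with 101), and Ly6g 87 of 911 (Ly6i the most, with 40).

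**Figure D2:**
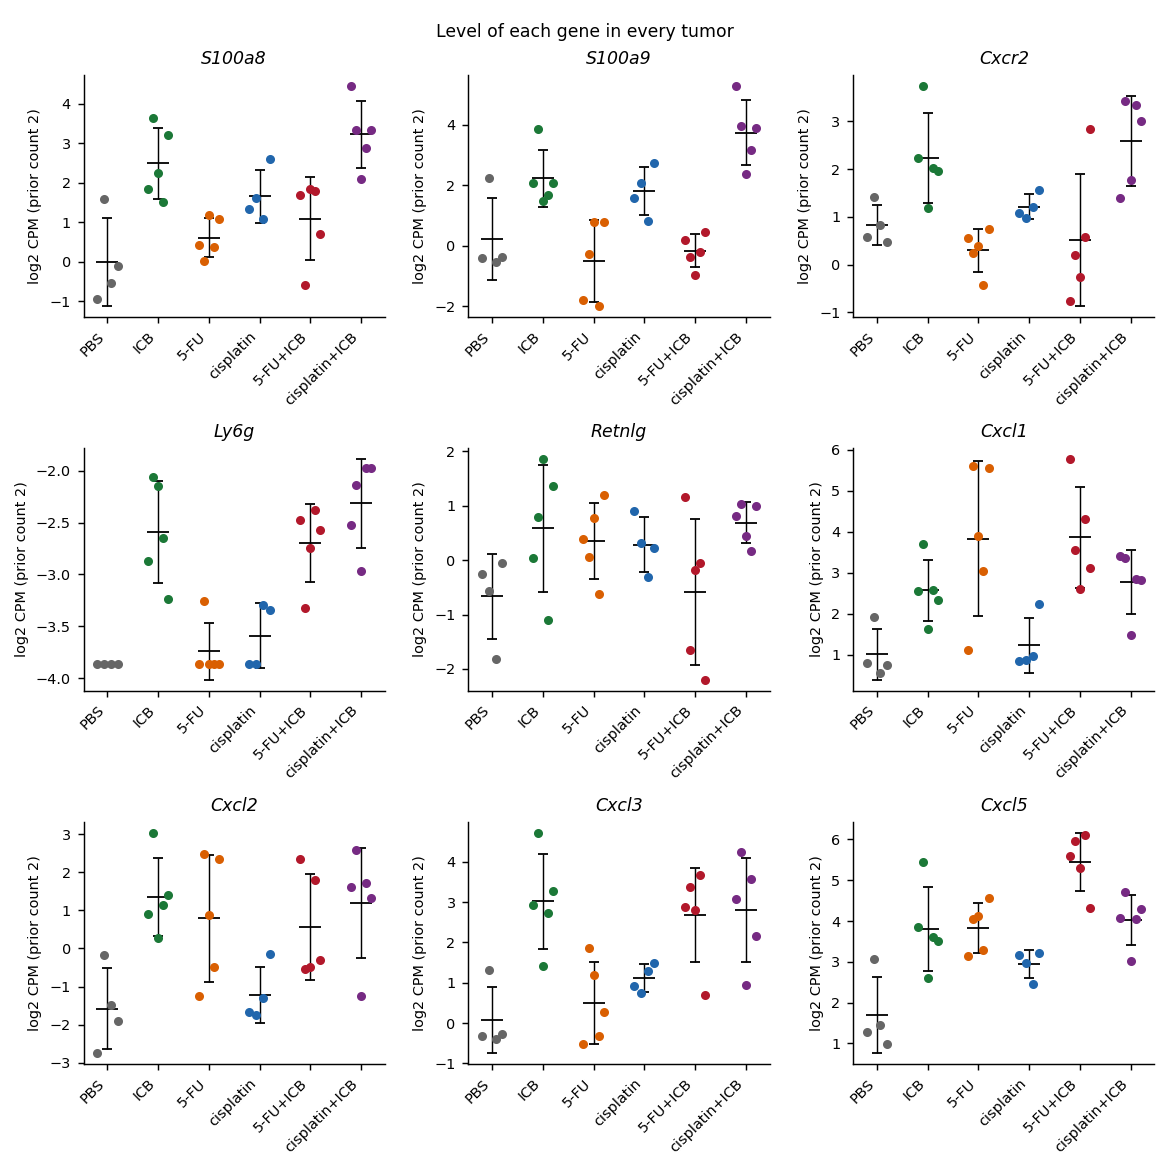
Level of each of the 9 genes in every tumor, in log2 CPM with a prior count of 2, by treatment group. Each point is 1 tumor, the short bar is the group mean and the error bars are the SD; Ly6g rests on 6 counts or fewer per tumor and its lowest values are 0 counts. S100a9 is highest in cisplatin+ICB tumors, Cxcl5 is highest in 5-FU+ICB tumors, and Cxcl1 spreads widely in both 5-FU groups.

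Individual tumors carried much of this variation. PBS replicate 2 held the highest PBS value of 7 of the 9 genes, ICB replicate 2 the highest ICB value of 8, and cisplatin replicate 4 the highest cisplatin value of 7. ICB replicate 2 was also the tumor with the high keratinocyte sum, and keratinocytes can make S100A8 and S100A9. The part of these cells in the result was not tested, and the fold changes that moved most without this tumor are given below. The 4 erythroid markers had median sums of 35.3 CPM in PBS, 36.4 CPM in ICB, 48.1 CPM in cisplatin and 53.7 CPM in cisplatin+ICB tumors, against 7.98 CPM in 5-FU and 9.0 CPM in 5-FU+ICB tumors. The highest sum, 569 CPM, was in a cisplatin+ICB tumor. The hemoglobin gene Hbb-bs was at 387 CPM in cisplatin+ICB replicate 1, the tumor with the highest S100a9, and at 15.6 to 81.2 CPM in the others of its group. On the log2 scale Hbb-bs was at 2.17 ± 0.91 in cisplatin+ICB against PBS (edgeR adjusted p = 0.15), and the part of blood in the member values was not tested.

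Fold changes were taken from 1 fit per matrix over all genes (edgeR's quasi-likelihood test). A gene was called differentially expressed (DEG) at a Benjamini-Hochberg adjusted p under 0.05 with an absolute log2 fold change over 0.5. Since the members were selected on these contrasts, nothing is read from their calls. Counts at an unadjusted p under 0.05 and calls by DESeq2 (same thresholds, over the genes it gave an adjusted p) are likewise set beside the share of all genes.

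ICB against PBS addressed what checkpoint blockade does alone. S100a8 (log2 fold change 2.40 ± 0.65, SE), Cxcl2 (3.19 ± 0.98), Cxcl3 (3.21 ± 0.75) and Cxcl5 (2.20 ± 0.59) were called higher, that is 4 of the 8 tested members, where 19.0% of all genes were called higher and 18.8% lower. S100a9 (1.77 ± 0.77), Cxcl1 (1.66 ± 0.80), Cxcr2 (1.70 ± 0.68) and Retnlg (1.53 ± 0.70) were not called. DESeq2 called S100a9 and Cxcr2 as well, and also Ly6g on its 6 counts or fewer, where it called 31.2% of all genes in either direction. Without PBS replicate 2 the S100a9 value was 3.15 and it was called, and S100a8 was at 3.39, Cxcl2 at 4.10, Cxcl3 at 3.92 and Cxcl5 at 2.99. Without ICB replicate 2, Retnlg was at 1.61 and the other 7 values were lower. S100a9 was then at 1.10, Cxcl1 at 1.28 and Cxcr2 at 1.11, and Cxcl2 was no longer called at 2.48. S100a8 (2.06), Cxcl3 (2.55) and Cxcl5 (1.56) were still called. Cxcl2 also lost its call without PBS replicate 1.

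In 5-FU against PBS, Cxcl1 (3.51 ± 0.86), Cxcl2 (2.91 ± 0.97) and Cxcl5 (1.97 ± 0.59) were called higher, 3 of 8, where 9.98% of all genes were called higher and 13.0% lower. Cxcl3 (0.50 ± 0.70), S100a8 (0.29 ± 0.61), S100a9 (-0.94 ± 0.75), Cxcr2 (-0.54 ± 0.66) and Retnlg (1.09 ± 0.70) were not called. The direction of S100a9 rested on 1 control: without PBS replicate 2 its value was 0.44. In the same fit S100a8 was at 1.28 and Cxcl3 at 1.21. S100a8 was at 0.02 without PBS replicate 1, and Cxcl3 at 0.01 without 5-FU replicate 2. Cxcl1 was called in all 19 fits that left out 1 tumor. Cxcl2 was called in 14 (values from 2.46 to 3.82) and lost its call without PBS replicate 1, 3 or 4 or 5-FU replicate 2 or 5. Cxcl5 was called in 16 (values from 1.73 to 2.75) and lost its call without PBS replicate 1 or 4 or 5-FU replicate 5.

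In 5-FU+ICB against PBS, all 4 ligands were called higher: Cxcl1 (3.25 ± 0.85), Cxcl2 (2.58 ± 0.96), Cxcl3 (2.74 ± 0.74) and Cxcl5 (3.63 ± 0.63). The other members were at 1.00 ± 0.62 (S100a8), -0.96 ± 0.75 (S100a9), 0.31 ± 0.66 (Cxcr2) and 0.46 ± 0.69 (Retnlg). Of all genes, 21.9% were called higher and 18.7% lower. Without PBS replicate 2, S100a9 was at 0.42 and S100a8 at 1.98, which was called. In the same fit Cxcl3 was at 3.45 and Cxcl5 at 4.41. Without 5-FU+ICB replicate 1, Retnlg was at -0.20 and Cxcl1 at 2.47. Without 5-FU+ICB replicate 5, Cxcr2 was at -0.87. Cxcl2 was called in 14 of 19 fits that left out 1 tumor (values from 1.99 to 3.49), and lost its call without PBS replicate 1, 3 or 4 or 5-FU+ICB replicate 1 or 4.

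Cisplatin against PBS gave 0 DEGs among the 17819 genes tested, with 0% called in either direction and 317 genes (1.78%) at an unadjusted p under 0.05. None of the 8 members was called by edgeR or DESeq2 (0.0114% of all genes by DESeq2), and 1 was at an unadjusted p under 0.05. The member values ranged from 0.25 ± 0.82 for Cxcl2 to 1.47 ± 0.64 for S100a8. Without PBS replicate 2, S100a9 was at 2.52, S100a8 at 2.39, Cxcl5 at 1.75, Cxcl3 at 1.55 and Cxcl2 at 1.10. Without cisplatin replicate 4, S100a9 was at 0.76, S100a8 at 0.98 and Cxcl3 at 0.70, and Cxcl2 (-0.40) and Cxcl1 (-0.28, from 0.26) lay below 0.

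In cisplatin+ICB against PBS 7 of 8 members were called higher, where 4.70% of all genes were called higher and 1.40% lower. They were S100a8 (3.14 ± 0.66), S100a9 (3.33 ± 0.79), Cxcr2 (1.98 ± 0.51), Cxcl1 (1.85 ± 0.49), Cxcl2 (3.10 ± 0.80), Cxcl3 (2.99 ± 0.71) and Cxcl5 (2.20 ± 0.55). Retnlg was at 1.35 ± 0.53. The calls depended on the 4 controls: 0 members were called without PBS replicate 1, 3 or 4, and 7 without PBS replicate 2. Without the latter S100a9 was at 4.63, S100a8 at 4.05, Cxcl2 at 3.94, Cxcl3 at 3.64 and Cxcl5 at 2.91. No member was called with only the 2 groups compared in the fit, and 4 were with all 6 groups. The calls also fell to 1, 2 and 3 without cisplatin+ICB replicate 2, 4 and 5.

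**Figure D3:**
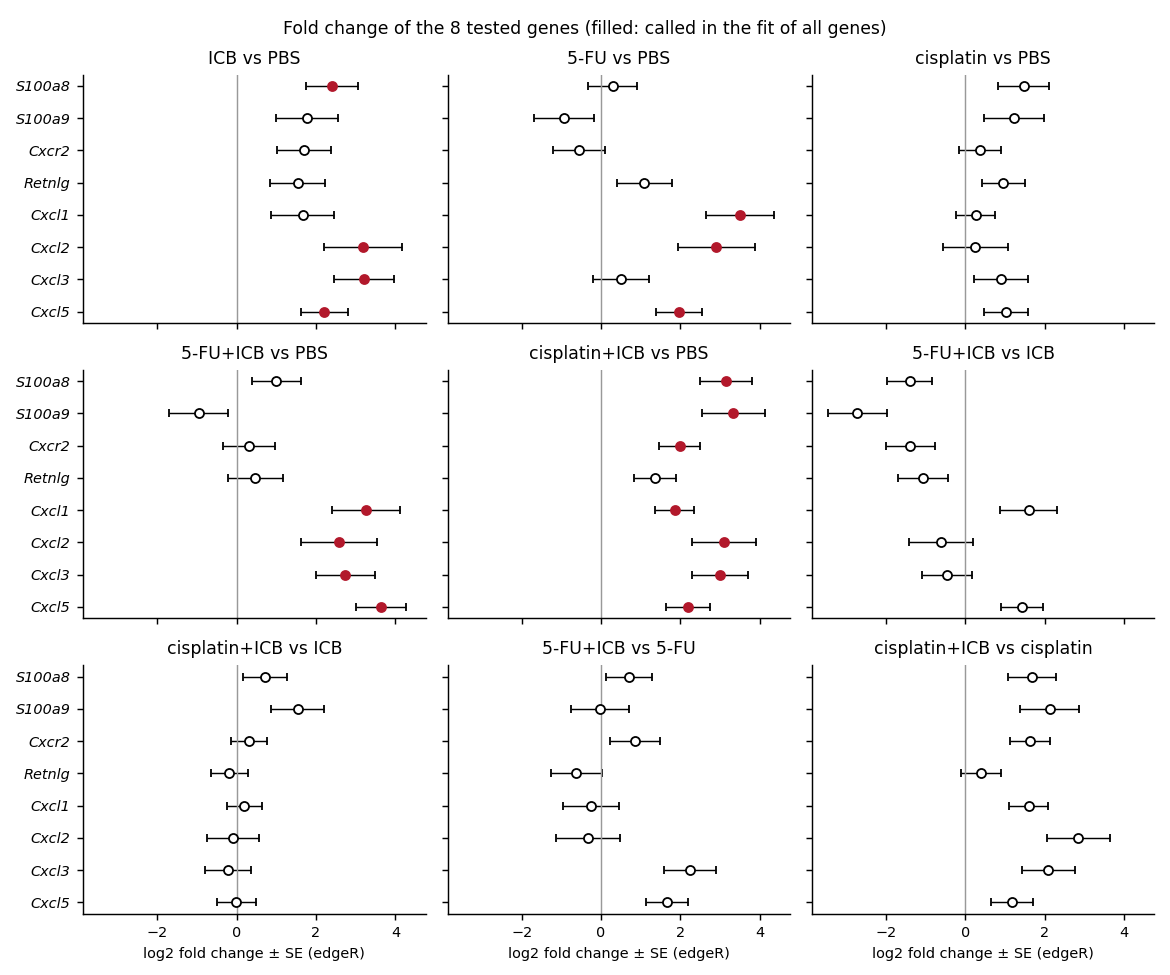
Log2 fold change of the 8 tested genes in 9 comparisons, with the SE from the edgeR fit as error bars; filled points were called in the fit of all genes. The 5-FU+ICB against ICB panel has Cxcl1 and Cxcl5 to the right of 0 and the other 6 genes to the left, and no point in it is filled.

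Comparisons of each combination with its own components asked what the second treatment added. In 5-FU+ICB against ICB, S100a9 was at -2.73 ± 0.75, S100a8 at -1.41 ± 0.57, Cxcr2 at -1.39 ± 0.62 and Retnlg at -1.07 ± 0.64. Cxcl1 and Cxcl5 were at 1.59 ± 0.72 and 1.43 ± 0.52, and Cxcl2 and Cxcl3 at -0.61 ± 0.81 and -0.47 ± 0.63. None was called by edgeR, 5 were at an unadjusted p under 0.05, and DESeq2 called 1. Of all genes, edgeR called 0.0670% higher and 0.162% lower, 10.9% were at an unadjusted p under 0.05, and DESeq2 called 1.58%. Without 5-FU+ICB replicate 5 Cxcr2 was at -2.57 and was called. Without ICB replicate 2, Cxcr2 was at -0.76, S100a9 at -2.01 and S100a8 at -1.01. In that fit Cxcl1 was at 2.03 and Cxcl5 at 2.12, and Cxcl2 (0.16) and Cxcl3 (0.23) lay above 0. Without 5-FU+ICB replicate 1, Cxcl1 was at 0.80, Cxcl2 at -1.20 and Retnlg at -1.73.

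In cisplatin+ICB against ICB the 8 values were between -0.22 ± 0.59 (Cxcl3) and 1.54 ± 0.67 (S100a9). None was called by edgeR or DESeq2 and 1 was at an unadjusted p under 0.05. Of all genes, edgeR called 0% in either direction and DESeq2 0.324%, and 15.9% were at an unadjusted p under 0.05. Without cisplatin+ICB replicate 1, the tumor with 38.9 CPM, the S100a9 value was 0.97 and that of S100a8 0.31, from 0.72. Without ICB replicate 2 S100a9 was at 2.24, S100a8 was at 1.09 and Cxcr2 at 0.93 (from 0.30), and Cxcl3 (0.46), Cxcl2 (0.65) and Cxcl5 (0.67) lay above 0.

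Against 5-FU alone, 5-FU+ICB tumors had higher values of Cxcl3 (2.24 ± 0.66) and Cxcl5 (1.66 ± 0.53), while Cxcl1 was at -0.26 ± 0.70 and S100a9 at -0.02 ± 0.73. Cxcl1 was at -1.04 without 5-FU+ICB replicate 1 and at 0.16 without 5-FU replicate 2, and S100a9 ranged from -0.29 to 0.34 with 1 tumor left out. None of the 8 was called by edgeR (0.0112% of all genes higher, 0% lower), 2 were at an unadjusted p under 0.05 (16.6% of all genes), and DESeq2 called 2 (2.55% of all genes). Against cisplatin alone, cisplatin+ICB tumors had values from 0.40 ± 0.50 for Retnlg to 2.85 ± 0.79 for Cxcl2. Again none was called by edgeR (0% of all genes in either direction), 7 were at an unadjusted p under 0.05 (14.2% of all genes), and DESeq2 called 5 (3.97% of all genes).

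The interaction, the effect of a chemotherapy in the presence of ICB minus its effect in the absence of ICB, was negative for all 8 members with 5-FU. It ranged from -0.54 ± 0.76 for Cxcl5 to -3.51 ± 1.25 for Cxcl2, and was -1.79 ± 1.05 for S100a9. None was called by edgeR (0.0112% of all genes higher, 0.0781% lower), 2 were at an unadjusted p under 0.05 (23.9% of all genes), and DESeq2 called 1 (8.90% of all genes). With cisplatin the interaction ranged from -1.14 ± 0.72 for Retnlg to 0.33 ± 1.00 for S100a9, and edgeR and DESeq2 called none (0% of all genes in either direction by edgeR and 0.00285% by DESeq2). None of the 8 was at an unadjusted p under 0.05, where 7.14% of all genes were. The interaction values moved with single tumors. Without ICB replicate 2, the 5-FU interaction was at -1.13 for S100a9, -0.30 for Cxcl3, -0.26 for Cxcr2 and 0.10 for Cxcl5, so that it was no longer negative for all 8. Without PBS replicate 2 it was at -4.43 for Cxcl2 and -3.17 for S100a9. The cisplatin interaction of S100a9 was at 1.03 without ICB replicate 2 and at -0.98 without PBS replicate 2. These comparisons share PBS or ICB tumors, and so their values are not independent of each other.

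Levels were next set against Ptprc, which encodes the leukocyte antigen CD45. Ptprc itself was called higher against PBS in each group that received ICB. On the log2 scale it was at 2.00 ± 0.44 in ICB, 2.15 ± 0.44 in 5-FU+ICB and 1.41 ± 0.33 in cisplatin+ICB tumors. Levels relative to Ptprc also entered the selection of the members, so nothing is read from these calls. 5-FU+ICB replicate 2 (105 CPM) lay within the PBS range (74.9 to 105 CPM), and cisplatin+ICB replicate 1 was at 118 CPM. T cell and macrophage markers moved with Ptprc. Of these, 4 of 4 and 6 of 6 were called higher in ICB, and 4 of 4 and 4 of 6 in 5-FU+ICB tumors. In cisplatin+ICB tumors 3 of 4 and 1 of 6 were called higher. In 5-FU tumors 4 of 4 T cell and 2 of 6 macrophage markers were called higher, although Ptprc was not (1.09 ± 0.43). Of 4 mast cell markers, 2 were called higher in ICB, 3 in 5-FU, 4 in 5-FU+ICB and 0 in cisplatin+ICB tumors. The 4 T cell markers had a median sum of 20.3 CPM (17.5 to 23.7) in PBS, 219 CPM (124 to 460) in ICB and 323 CPM (35.6 to 857) in 5-FU+ICB tumors. The 6 macrophage markers had median sums of 1465, 5294 and 3833 CPM in these groups, and 2542 CPM in cisplatin+ICB tumors. No marker of these lists was at 0 throughout a group, and their part in the member values was not tested.

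Per Ptprc, S100a9 (log2 CPM minus that of Ptprc) was -6.25 ± 0.90 in ICB and -6.29 ± 1.20 in PBS tumors. The PBS mean included replicate 2 at -4.49, and the other 3 PBS tumors were at -6.93, -6.78 and -6.97, below 4 of the 5 ICB tumors. It was higher in cisplatin (-4.96 ± 0.75) and cisplatin+ICB tumors (-4.05 ± 1.41) and lower in 5-FU (-7.96 ± 0.74) and 5-FU+ICB tumors (-8.58 ± 0.89). Among the steps of this order, those from cisplatin to ICB (1.30) and from PBS to 5-FU (1.67) exceeded the larger SD. The cisplatin+ICB mean included replicate 1 at -1.60, which had the lowest Ptprc of its group (118 CPM). Cxcr2 per Ptprc was lower in ICB (-6.25 ± 0.98) than in PBS tumors (-5.69 ± 0.40) and lower again in 5-FU (-7.16 ± 0.53) and 5-FU+ICB tumors (-7.89 ± 1.33). In cisplatin+ICB it was -5.20 ± 0.35. The ligands did not share 1 order. Cxcl2 and Cxcl3 per Ptprc had their highest means in cisplatin+ICB tumors (-6.59 ± 1.25 and -4.98 ± 1.21), as S100a9 did. Cxcl3 per Ptprc was lowest in 5-FU tumors (-6.96 ± 0.99). Cxcl1 per Ptprc was highest in 5-FU tumors (-3.62 ± 1.73), against -5.51 ± 0.47 in PBS and -5.91 ± 0.85 in ICB tumors. Cxcl5 per Ptprc was highest in 5-FU+ICB tumors (-2.95 ± 1.59) and lowest in PBS tumors (-4.82 ± 0.85). No step between neighbors exceeded the larger SD for Cxcl1, Cxcl2, Cxcl3, Cxcl5, Cxcr2 or Retnlg on this scale.

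**Figure D4:**
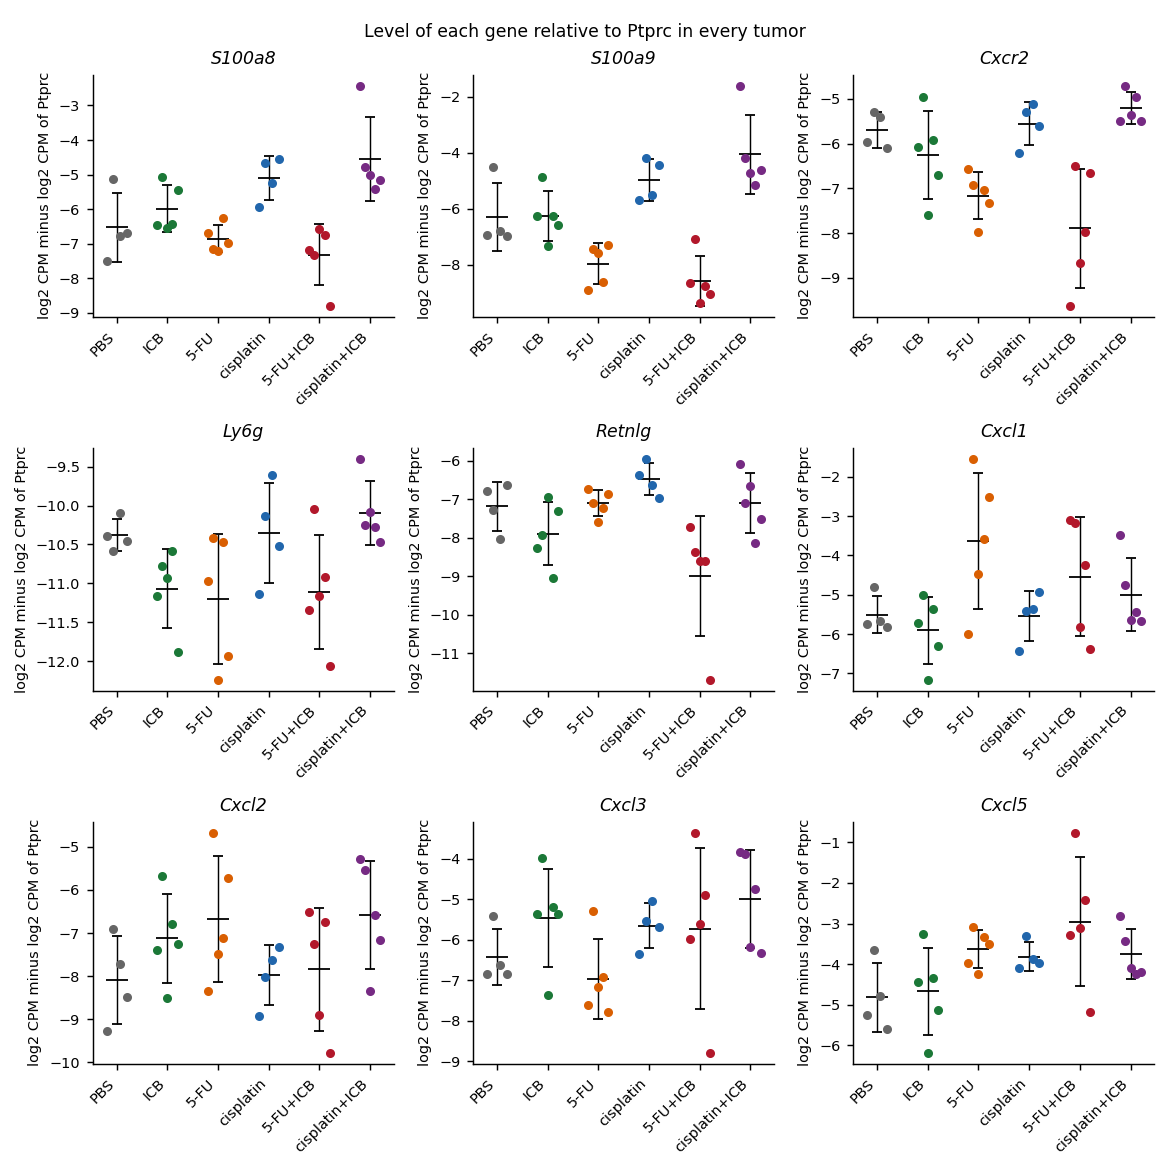
Level of each of the 9 genes relative to Ptprc in every tumor, as log2 CPM of the gene minus log2 CPM of Ptprc, by treatment group. Each point is 1 tumor, the short bar is the group mean and the error bars are the SD. S100a9 lies lowest in the 5-FU and 5-FU+ICB groups (means -7.96 and -8.58), and 1 PBS tumor at -4.49 stands above the other 3; Ly6g rests on 6 counts or fewer per tumor.

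Correlations between members were taken over the 28 tumors. Cxcl1 and Cxcl2 varied together (Pearson r of log2 CPM 0.83, and 0.91 after the group means were subtracted), as did Cxcl1 and Cxcl5 (0.77 and 0.66) and Cxcl2 and Cxcl3 (0.72 and 0.75). S100a8 and S100a9 varied together (0.85 and 0.68), and S100a9 with Cxcr2 (0.75 and 0.38). Between ligands and calprotectin genes the values ran from 0.05 (Cxcl1 and S100a9) to 0.66 (Cxcl3 and S100a8), with 0.58 for Cxcl2 and S100a8 and 0.55 for Cxcl3 and S100a9. Cxcl1 had r = -0.09 with Cxcr2 and 0.48 with Cxcl3. Ly6g was closest to Cxcl3 (0.76) and S100a8 (0.67), and Retnlg had 0.59 with S100a8. Once group means were subtracted, Cxcl1 and S100a9 had r = 0.69. Within the groups, then, a tumor high in one tended to be high in the other, while the groups themselves were ordered differently. Cxcl1 minus S100a9 was 4.34 ± 1.29 on the log2 scale in 5-FU and 4.04 ± 1.09 in 5-FU+ICB tumors, against 0.78 ± 0.73 in PBS, 0.35 ± 0.40 in ICB, -0.58 ± 0.56 in cisplatin and -0.95 ± 0.60 in cisplatin+ICB tumors. All 10 tumors given 5-FU were at 2.65 or more, and the other 18 at 1.19 or less. Both genes were selected on their levels in these groups, and the share of other gene pairs that separate the tumors in this way was not computed. These correlations share library depth and cell makeup between the genes and are descriptions of these tumors.

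**Figure D5:**
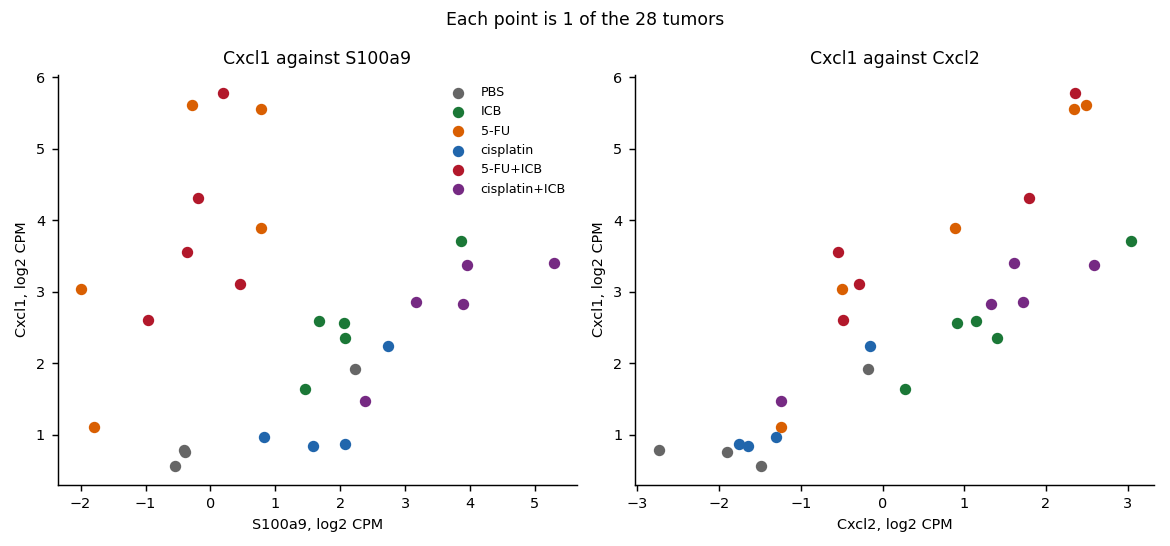
Cxcl1 against S100a9 (left) and against Cxcl2 (right), in log2 CPM, with 1 point for each of the 28 tumors colored by treatment. On the left Cxcl1 minus S100a9 is higher in tumors given 5-FU than in the others, although they overlap on each axis (r = 0.05 over all tumors). On the right Cxcl1 rises with Cxcl2 (r = 0.83), with tumors given 5-FU above ICB tumors of similar Cxcl2.

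The genes most like each member were sought among 14399 genes by Pearson r of log2 CPM over the 28 tumors. S100a9 was most like Chil3 (r = 0.86), a chitinase-like gene of inflammatory monocytes and macrophages, followed by Gpr141 (0.83) and Sirpb1a (0.81). S100a8 was most like Dpep2 (0.87), Gm10693 (0.87) and Gpr141 (0.86), and Cxcr2 was most like Asprv1 (0.83), Il1f9 (0.80) and Gpr141 (0.79). Chil3 was in the monocyte marker list. Since it was picked here by its likeness to S100a9 over these same tumors, its values are a description and nothing is read from its calls. It was called higher in ICB (4.99 ± 0.87) and in cisplatin+ICB tumors (6.36 ± 1.02) against PBS, and was at -0.13 ± 0.79 in 5-FU tumors. In 5-FU+ICB against ICB it was at -3.34 ± 0.72. Its calls were not examined with tumors left out. The other monocyte markers differed from it: Ccr2 and Plac8 were called in none of these 4 comparisons, and Ly6c2 was called in ICB (2.22 ± 0.69, adjusted p = 0.017) and cisplatin+ICB tumors (1.86 ± 0.46, adjusted p = 0.029) but was at 0.56 ± 0.61 in 5-FU+ICB against ICB (adjusted p = 0.79). The summed monocyte markers had medians of 204 CPM in PBS (163 to 327), 428 CPM in ICB (255 to 462), 185 CPM in 5-FU (152 to 426), 308 CPM in cisplatin (235 to 490), 331 CPM in 5-FU+ICB (182 to 741) and 368 CPM in cisplatin+ICB tumors (325 to 892), and their part in the S100a9 values was not tested.

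Among the ligands, Cxcl1 was most like Ccl7 (0.89), a monocyte chemoattractant, and Nfkbiz (0.87), an NF-κB cofactor. Cxcl2 was most like Atf3 (0.88), Tnf (0.85) and Rgs1 (0.85), and Cxcl5 was most like Ccl2 (0.85), Hsd11b1 (0.84) and Ccl7 (0.84). Cxcl3 was most like AA467197 (0.90), Rnf19b (0.85) and Gzmb (0.85), the granzyme of cytotoxic lymphocytes. Retnlg had the weakest neighbors: Alox5 (0.74), Mrgprb1 (0.74), a receptor of mast cells, and Cd300ld (0.71). For Ly6g, Gzmb (0.87), Slc16a3 (0.84) and AA467197 (0.84) led, on counts of 6 or fewer.

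The rest of the pathway was described with 5 lists of companion genes, 71 in all with the members left out, of which 60 were tested in the 5-FU matrix and 59 in the cisplatin matrix. Against PBS, ICB raised 39 and lowered 3 of the 60, 5-FU raised 20 and lowered 3, 5-FU+ICB raised 43 and lowered 3, and cisplatin+ICB raised 29 and lowered 0 of the 59. Of all genes, 19.0% were called higher and 18.8% lower in ICB, 9.98% and 13.0% in 5-FU, 21.9% and 18.7% in 5-FU+ICB, and 4.70% and 1.40% in cisplatin+ICB tumors. With 1 tumor left out, the 29 calls in cisplatin+ICB ranged from 0 to 45 and the 23 in 5-FU from 12 to 30. The cisplatin+ICB count was 0 without PBS replicate 1, 3 or 4 and 0 with only the 2 groups compared in the fit. The median log2 fold changes of the lists were 1.77, 1.04, 2.04 and 1.50, against -0.03, -0.01, -0.04 and 0.03 over all genes tested. Cisplatin alone gave 0 calls by edgeR and by DESeq2 in these lists, with 2 genes at an unadjusted p under 0.05. The adjusted p-values below are from edgeR's quasi-likelihood test over all genes.

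Of the 17 tested genes for receptors and adhesion molecules of neutrophils, 13 were called higher in ICB, 14 in 5-FU+ICB, 13 in cisplatin+ICB and 5 in 5-FU tumors, and none lower. All 13 cisplatin+ICB calls were lost without PBS replicate 1, 3 or 4. Csf3r rose by 3.72 ± 0.61 in ICB (adjusted p = 0.00044), by 1.95 ± 0.56 in 5-FU (adjusted p = 0.019), by 2.57 ± 0.57 in 5-FU+ICB (adjusted p = 0.0026) and by 2.65 ± 0.57 in cisplatin+ICB tumors (adjusted p = 0.018). Its 5-FU call held in 16 of 19 fits that left out 1 tumor (values from 1.49 to 2.15). The formyl peptide receptors Fpr1 and Fpr2 were called in the same 4 groups, at 3.74 ± 0.87 (adjusted p = 0.0085) and 2.99 ± 0.64 (adjusted p = 0.0063) in 5-FU tumors. The lectin Clec4e, which senses damaged cells and fungi, led in ICB at 4.62 ± 0.78 (adjusted p = 0.00054). These genes are also expressed by macrophages, whose marker values are given above, and the part of those cells in these changes was not tested.

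Of the 17 granule and oxidase genes listed, 13 were tested, and Mpo, Elane and Ngp were among those too low. In ICB, 5-FU+ICB and cisplatin+ICB tumors 8 of the 13 were called higher against PBS, and in 5-FU tumors 3. Mmp8, a collagenase of secondary granules, was called higher in ICB (4.66 ± 0.89, adjusted p = 0.0011), in 5-FU+ICB (3.37 ± 0.89, adjusted p = 0.0063) and in cisplatin+ICB tumors (4.97 ± 0.65, adjusted p = 0.0092), where every PBS tumor had 3 counts or fewer, so that the size of the fold depends on the prior count. Its medians were 1.43, 0.680 and 1.78 CPM in these groups. The oxidase subunit gene Cybb, which macrophages share, was called at 3.85 ± 0.66 in ICB and 1.80 ± 0.60 in 5-FU tumors (adjusted p = 0.00055 and 0.035). Its 5-FU call held in 13 of 19 fits that left out 1 tumor, with values from 1.11 to 2.02. Lcn2, the siderophore-binding lipocalin made by neutrophils and by epithelium, was called in 5-FU (3.07 ± 1.02, adjusted p = 0.036), 5-FU+ICB (4.74 ± 1.10, adjusted p = 0.0032) and cisplatin+ICB tumors (2.51 ± 0.70, adjusted p = 0.044). With 1 tumor left out, the Lcn2 call held in 12 of 19 fits for 5-FU, 19 of 19 for 5-FU+ICB and 6 of 18 for cisplatin+ICB. Mmp9 was called in no comparison, and was at -1.42 ± 0.56 in 5-FU against PBS (adjusted p = 0.068). Ctsg, the protease cathepsin G, was called higher in ICB (5.66 ± 1.03, adjusted p = 0.00082) and cisplatin+ICB tumors (3.99 ± 0.96, adjusted p = 0.026) against PBS, and lower in 5-FU+ICB against ICB (-4.23 ± 0.85, adjusted p = 0.047). The latter call held in 4 of 19 fits that left out 1 tumor, with values from -4.78 to -3.34.

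Csf3, which encodes the granulocyte growth factor G-CSF, was the other of the 2 companions called in 5-FU+ICB against ICB, at 3.24 ± 0.64 (adjusted p = 0.042), a call that held in 5 of 19 such fits, with values from 2.99 to 3.67. Its median was 2.12 CPM in 5-FU+ICB, 0.401 CPM in 5-FU, 0.158 CPM in ICB and 0.115 CPM in PBS tumors. Against PBS it was called in 5-FU+ICB tumors (3.70 ± 0.73, adjusted p = 0.0014) and was at 0.45 ± 0.73 in ICB tumors (adjusted p = 0.63). Of the 4 PBS tumors, 3 had 3 counts or fewer, so that the size of these folds depends on the prior count. The transcription factor gene Gfi1 was called in ICB (2.58 ± 0.48, adjusted p = 0.00095), 5-FU+ICB (2.68 ± 0.49, adjusted p = 0.00096) and cisplatin+ICB tumors (2.08 ± 0.52, adjusted p = 0.030), and also serves lymphocytes.

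Of the 10 tested inducers of the ligands and NF-κB feedback genes, 7 were called higher in 5-FU tumors, 8 in ICB, 8 in 5-FU+ICB and 3 in cisplatin+ICB tumors. In 5-FU tumors Il1a (2.76 ± 0.73, adjusted p = 0.014), Nfkbiz (2.51 ± 0.52, adjusted p = 0.0054) and Tnf (2.43 ± 0.51, adjusted p = 0.0057) led. Il1b was called in ICB (2.16 ± 0.64, adjusted p = 0.012) and was at 1.70 ± 0.62 in 5-FU tumors (adjusted p = 0.053). Il6 was called in 5-FU (2.39 ± 0.81, adjusted p = 0.039) and 5-FU+ICB tumors (2.43 ± 0.82, adjusted p = 0.022). These calls held in 13 of 19 fits (values from 1.69 to 2.67) and 16 of 19 fits (2.10 to 2.71) that left out 1 tumor. Il17a reached at most 0.0530 CPM in any tumor and was not tested.

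Among other ligands and the paralogs of members, the platelet CXCR2 ligand Ppbp was called in 5-FU+ICB tumors against PBS (3.95 ± 0.77, adjusted p = 0.0013), with medians of 2.34 and 0.191 CPM. The decoy chemokine receptor gene Ackr1, of venules and red cells, was called in 5-FU (3.08 ± 0.83, adjusted p = 0.015) and 5-FU+ICB tumors (4.06 ± 0.86, adjusted p = 0.0020). Retnla, a paralog of Retnlg made by alternatively activated macrophages, was called in ICB (6.08 ± 1.28, adjusted p = 0.0018), 5-FU (4.28 ± 1.18, adjusted p = 0.016) and 5-FU+ICB tumors (6.35 ± 1.29, adjusted p = 0.0016). The 5-FU calls of Ackr1, Retnla and Il1a each held in 18 of 19 fits that left out 1 tumor. Of the 563 words of 31 bases in Retnlg, 31 also occur in Retnla, and their part in the Retnlg counts was not tested. The S100 paralogs S100a4, S100a6 and S100a11, which are widely expressed in mesenchymal and tumor cells, were called lower in ICB, 5-FU and 5-FU+ICB tumors. S100a6 was at -1.67 ± 0.31 in ICB (adjusted p = 0.00095), -1.18 ± 0.31 in 5-FU (adjusted p = 0.014) and -1.61 ± 0.31 in 5-FU+ICB tumors (adjusted p = 0.0013). Its 5-FU call held in 18 of 19 fits that left out 1 tumor and was lost without PBS replicate 2 (value -0.76), and that of S100a11 held in 13 of 19.

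Few companions were called by edgeR between a combination and its components, and the shares of all genes are those given for the members above. In 5-FU+ICB against ICB, 1 was called higher and 1 lower of 60, with 16 at an unadjusted p under 0.05 and 6 called by DESeq2. In cisplatin+ICB against ICB, edgeR called 0 of 59, with 16 at an unadjusted p under 0.05 and 1 called by DESeq2. Against the chemotherapy alone, edgeR called 0 in both combinations, with 25 of 60 (5-FU) and 42 of 59 (cisplatin) at an unadjusted p under 0.05 and 6 and 24 called by DESeq2. The interactions gave 0 companions by edgeR, with 26 (5-FU) and 9 (cisplatin) at an unadjusted p under 0.05 and 16 and 0 called by DESeq2.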

How the data were processed

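RNA from 28 whole tumors was sequenced. According to the study's methods and the submitters' processing notes, the authors converted base calls with bcl2fastq 2.20.0.422, assigned reads to GRCm38/mm10 transcripts with kallisto 0.46.0 and summarised them to genes with tximport; the deposited values are estimated counts in 2 matrices, which have 9 control and ICB tumors in common. Fractional values (off a whole number by over 1e-06) made up 23.7%, and every value was rounded. Columns that belong to no tumor of the series numbered 0. Each matrix, with its 4 groups, was filtered by expression, scaled by TMM and fitted with edgeR 4.0.16 (quasi-likelihood test, R 4.3.3, limma 3.58.1), testing 17916 genes (5-FU matrix) and 17819 (cisplatin matrix). ICB against PBS came from the 5-FU matrix. p-values were adjusted over all genes of a matrix by the Benjamini-Hochberg method. The script was tested on simulated data. Levels used a prior count of 2 and TMM over all 28 tumors, and floors cover counting error only. The members and the gene lists were chosen with earlier results of these data known. Of the companions, the 3 of each list with the largest fold changes among those called, and a set of defining genes, were named; Ccr2, Plac8, Ly6c2 and Upk3b were named after their values were seen. Alternatives were DESeq2 1.42.0, its size factors in edgeR, other filters (none, or at least 10 counts in every tumor), all 6 groups or only the compared groups in the fit, a replicate block, each tumor left out, a prior count of 0.5, library size alone and levels relative to Ptprc. Each tumor came from a separate mouse. RefSeq upstream sequences were of GRCm38.p6 and gene positions of GENCODE M21. A gene that the rule on likeness names is not reported here.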

Additional observations from a re-analysis of the deposited data

Results flagged for a closer look

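Of 87 gene and group combinations of 4 or 5 tumors examined, 7 held a tumor far from the rest of its group by Dixon's criterion, where chance gives about 1 in 20. PBS replicate 2 accounted for 4 of them. Its S100a9 was 2.23 on the log2 CPM scale (4.61 CPM against 0.614 to 0.697 CPM in the other PBS tumors), its Cxcl1 was 1.91 (3.69 against 1.41 to 1.66 CPM), its Cxcl3 was 1.31 (2.41 against 0.686 to 0.764 CPM) and its Il1b was 5.62 (49.1 against 12.4 to 15.2 CPM). In ICB replicate 2 S100a9 was 3.85 (14.4 against 2.68 to 4.15 CPM). In cisplatin replicate 4 Cxcl1 was 2.25 (4.68 against 1.72 to 1.88 CPM). In 5-FU+ICB replicate 5 Cxcl3 was low at 0.69 (1.55 against 6.93 to 12.6 CPM). The cause of these values was not tested.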

How the results depend on the processing

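Reversals were counted only for genes called in the main fit, and none was found under any alternative. Members not called did change sign. S100a9 in 5-FU against PBS was at -0.94, and at 0.44 without PBS replicate 2. Mean log2 CPM of Cxcr2 was higher in ICB than in PBS tumors (2.23 against 0.82), but lower per Ptprc (-6.25 against -5.69). DESeq2 in place of edgeR called 7 members in ICB against PBS (4 in edgeR), 1 of them Ly6g, which the edgeR filter removed, and 31.2% of all genes. Where edgeR called none, DESeq2 called 1 in 5-FU+ICB against ICB, 2 in 5-FU+ICB against 5-FU, 5 in cisplatin+ICB against cisplatin and 1 in the 5-FU interaction. For companions it called 6, 6, 24 and 16 in these comparisons and 1 in cisplatin+ICB against ICB. The 2 companion calls in 5-FU+ICB against ICB became 1 with DESeq2 size factors and 0 without the filter or with only the 2 groups compared. The 0 with at least 10 counts in every tumor is fixed by that filter, which removed both genes, Csf3 and Ctsg, before testing. In cisplatin+ICB against PBS, 4 members were called with all 6 groups in 1 fit and 0 members and 0 companions with only the 2 groups compared; in 5-FU against PBS 10 companions were called with all 6 groups.

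The replicate numbers did not pair the tumors (correlations of same-numbered deviations from -0.66 to 0.68, with no pair of groups above 0.1 throughout). With the replicate number as a block, 15 companions were called in 5-FU against PBS (23 without it), 6 in cisplatin+ICB against PBS (29 without it), 0 in 5-FU+ICB against ICB, and 4 members in cisplatin+ICB against PBS.

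With each tumor left out in turn, members called ranged from 1 to 3 (5-FU against PBS), 3 to 5 (ICB and 5-FU+ICB against PBS), 0 to 7 (cisplatin+ICB against PBS), 0 to 1 (5-FU+ICB against ICB) and 0 to 2 (cisplatin+ICB against cisplatin). Companions ranged from 12 to 30, 39 to 44, 42 to 53, 0 to 45, 0 to 2 and 0 to 32 in these comparisons, 0 to 18 in 5-FU+ICB against 5-FU and 0 to 7 in the 5-FU interaction. The count of 0 in cisplatin+ICB against PBS came without PBS replicate 1, 3 or 4. Relative to Ptprc, 45 of 81 member level differences moved by more than 1 SD. The causes of these shifts were not tested.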
